A study of Oryza sativa with 20 samples.

Results

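The silicon transporter genes of rice (Oryza sativa) were followed in 2 parts of the seedling's first complete leaf, the lamina joint (LJ), where blade meets sheath and where the leaf bends, and the blade. The genes were taken by gene ID and are 3 of the 37829 rice gene IDs measured: LSI1 (OS02G0745100, chromosome 2), LSI2 (OS03G0107300, chromosome 3) and LSI6 (OS06G0228200, chromosome 6). Levels are in FPKM, which scales the fragments read from a transcript by its length and by how many fragments mapped in all. LJ and blade were each represented by 2 libraries at each of 5 stages, S1 to S5, running from the making of the organ to the appearance of the leaf angle, which gives 10 groups and 20 libraries. All seedlings were grown in water in a day and night cycle, and the labels name no cultivar, mutant or silicon treatment. Tissue was cut on days 4, 5, 6, 7 and 9 after germination, days that the labels do not tie to stages, in pieces under 1 mm long for LJ and under 10 mm for blade.

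Rice takes up silicic acid with a pair of unlike proteins. LSI1 is a channel of the NIP group of aquaporins that lets silicic acid into the cell, and LSI2 is an efflux carrier that moves it out, and both are best known from the exodermis and endodermis of the root. LSI6, the closest relative of LSI1, is the channel known for unloading silicic acid from the xylem in leaf sheath and blade. The silicon is laid down in the shoot, where it stiffens the leaf.

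The labels do not say if the 2 libraries of a group are separate batches of plants, and the p-values therefore describe the variation between libraries, which could be technical. Between 18265 and 21695 rice genes reached 1 FPKM per library, and read numbers are unknown. As the mean of the 5 stages, tissue markers followed the labels. The joint genes LG1 and DL were higher in LJ, by 1.57 ± 0.12 and 2.02 ± 0.13 (SE) on the log2(FPKM + 1) scale (limma, adjusted p = 7.2e-07 and 2.3e-07). All 4 of 4 listed small-subunit Rubisco IDs were called lower in LJ, with a median difference of −2.35, where 15.1% of tested genes were called lower. At the late stages they set the tissues apart less clearly. Limma called 2 of 2 joint genes higher in LJ at S4 and 1 of 2 at S5, where higher calls made up 6.7% and 7.63% of tested genes. The median difference of the Rubisco IDs was −0.87 at S4 and −1.52 at S5, against −3.57 at S1. Over all tested genes the median was 0.23 at S4 and 0.15 at S5. The difference was not called for 4 of 4 Rubisco IDs at S4 and 3 of 4 at S5. Replicates were least alike at S4, where 50 genes made up 44.2% of the FPKM total of the second blade library.

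LSI1 was nearly absent from both tissues through S3 and stood at moderate levels from S4. In LJ it stood at 0.110 and 0.0447 FPKM at S1, 0.245 and 0.153 at S2, 0.445 and 0.0556 at S3, 14.1 and 18.5 at S4, and 27.9 and 26.6 at S5. In blade it stood at 0.285 and 0.190 FPKM at S1, 0.782 and 0.202 at S2, 0.467 and 0.0719 at S3, 9.04 and 8.31 at S4, and 13.6 and 11.6 at S5. The 8 libraries of S4 and S5, at 8.31 FPKM or more, all lay above the 12 libraries of S1 to S3, at 0.782 FPKM or less. Among all rice gene IDs in a library, LSI1 lay between percentiles 24.6 and 41.9 at S1 to S3 and between percentiles 75.5 and 85.9 at S4 and S5.

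LSI6 was present in every library and had its highest mean at S5 in both tissues. In LJ it stood at 4.85 and 6.62 FPKM at S1, 4.36 and 1.77 at S2, 11.2 and 8.10 at S3, 10.4 and 51.9 at S4, and 65.3 and 50.5 at S5. In blade it stood at 4.42 and 6.91 FPKM at S1, 9.12 and 5.19 at S2, 14.2 and 14.99 at S3, 14.8 and 36.7 at S4, and 37.7 and 45.0 at S5. The S4 libraries disagreed within each tissue: the first replicate of either tissue lay near the S3 level and the second near the S5 level. At S4 and S5 LSI6 lay between percentiles 76.3 and 93.8 of the rice gene IDs.

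LSI2 was listed at 0 in 18 of 20 libraries. The exceptions were 1 blade library at S2, with 0.0175 FPKM, and 1 blade library at S3, with 0.327 FPKM, and the other blade library of each of these stages was at 0. LSI2 missed the filter of 1 FPKM in at least 2 libraries and was not tested across genes, and at this unknown depth the carrier that works with LSI1 in the root was barely detectable in these leaf pieces. As the mean of 5 stages, LJ minus blade was −0.04 in log2(FPKM + 1), a value that rests on these 2 blade libraries alone. A further ID listed beside LSI2, OS10G0547500, which the annotation used here does not pair with a symbol, reached at most 0.0421 FPKM.

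**Figure D1:**
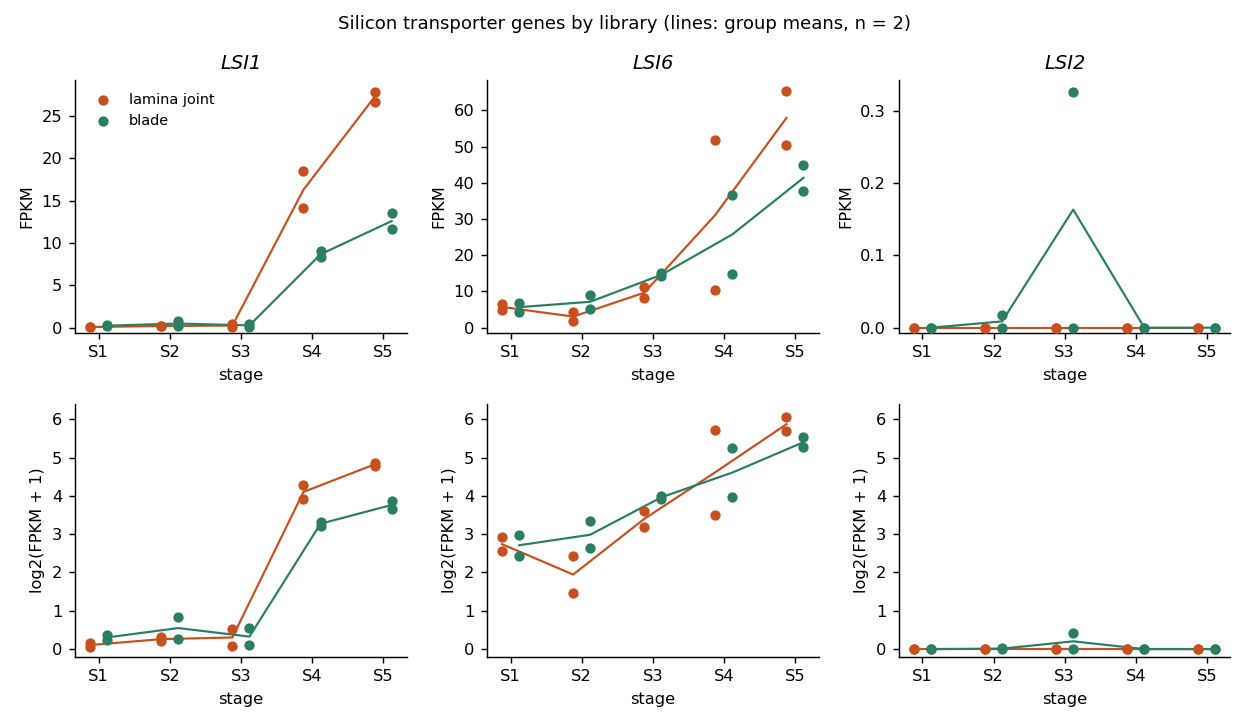
FPKM (upper row) and log2(FPKM + 1) (lower row) of LSI1, LSI6 and LSI2 at stages S1 to S5, with 1 point per library and lines through the means of 2 libraries, LJ drawn left of blade. LSI1 stays at or under 0.782 FPKM through S3 and stands at 8.31 FPKM or more from S4, LSI6 is spread between 10.4 and 51.9 FPKM in LJ at S4, and LSI2 is above 0 in 2 blade libraries.

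Ordered by mean level, LSI1 was highest in LJ at S5 (27.3 ± 0.914 FPKM, SD, n = 2), then in LJ at S4 (16.3 ± 3.09), blade at S5 (12.6 ± 1.36) and blade at S4 (8.67 ± 0.514). No library of one of these groups overlapped the next in the order. The 6 groups of S1 to S3 followed with means of 0.492 FPKM or less, in which neighbours overlapped apart from the last, LJ at S1 (0.0773 ± 0.0460), whose libraries lay under those of LJ at S2. LJ at S1, at up to 0.110 FPKM, did overlap LJ at S3 and blade at S3, which reached down to 0.0556 and 0.0719 FPKM. LSI6 had its highest mean in LJ at S5 (57.9 ± 10.4 FPKM), clear of blade at S5 (41.4 ± 5.13). LJ at S5, at 50.5 FPKM or more, did overlap LJ at S4, which reached 51.9 FPKM. Blade at S5, LJ at S4 (31.1 ± 29.4), blade at S4 (25.8 ± 15.5) and blade at S3 (14.6 ± 0.586) overlapped from each to the next. Below blade at S3, and clear of it, came LJ at S3 (9.66 ± 2.198), blade at S2 (7.16 ± 2.78), LJ at S1 (5.73 ± 1.25) and blade at S1 (5.66 ± 1.76), again overlapping from each to the next. LJ at S3, at up to 11.2 FPKM, also overlapped LJ at S4, which reached down to 10.4 FPKM. LJ at S2 had the lowest mean (3.07 ± 1.83) and lay clear of blade at S1. In bulk tissue a change in the number of cells that hold a transcript and a change in the amount per cell cannot be told apart.

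The change over the whole series was tested with limma across 26403 genes on log2(FPKM + 1), a scale that understates the change of a gene at low FPKM. LSI1 and LSI6 both rose in both tissues between S1 and S5. In LJ, LSI1 rose by 4.71 ± 0.25 (SE; adjusted p = 2.5e-09), to 27.3 FPKM at S5 against 0.0773 FPKM at S1. In blade it rose by 3.45 ± 0.25 (adjusted p = 3.6e-08), to 12.6 FPKM at S5 against 0.237 FPKM at S1. LSI6 rose by 3.13 ± 0.58 in LJ (adjusted p = 2.9e-04), where the mean at S5 was 10.1 times that at S1, and by 2.69 ± 0.58 in blade (adjusted p = 0.0011), where it was 7.30 times. Rises were common: 34.7% of tested genes were called higher at S5 in LJ and 27.2% in blade, and 31.2% and 35.6% lower, with medians over all tested genes of 0.09 and −0.18. The rises of both genes kept their calls in all 29 other fits of each, the fits without the S4 libraries included.

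The steps between stages were then tested one by one. LSI1 had its largest step from S3 to S4 in both tissues, where it rose by 3.80 ± 0.25 in LJ (adjusted p = 7.3e-08) and by 2.95 ± 0.25 in blade (adjusted p = 6.6e-07). Called rises in this step made up 16.2% of tested genes in LJ and 8.08% in blade, and called falls 29.1% and 24.9%. The mean FPKM of LSI1 at S4 was 65.2 times that at S3 in LJ and 32.2 times in blade, ratios whose lower value is under 0.3 FPKM and so imprecise. From S1 to S2 and from S2 to S3 limma called no change of LSI1 in either tissue, with values between −0.22 and 0.24 and unadjusted p of 0.34 or more. In these steps 1.66% and 23.7% of genes were called in LJ and 2.78% and 10.5% in blade. From S4 to S5 LSI1 rose once more in LJ, by 0.72 ± 0.25 (adjusted p = 0.042, where 19.5% of genes were called higher), a call that was kept in 14 of 28 other fits. It was lost under upper quartile scaling (0.44, adjusted p = 0.20), without either LJ library of S5 (adjusted p = 0.17 and 0.11) and without the first LJ library of S4 (0.54, adjusted p = 0.22). Without any 1 of the 4 S1 libraries or 1 of the 2 blade libraries of S5 it missed the threshold narrowly (0.72, adjusted p between 0.051 and 0.059). In blade the same step gave 0.49 ± 0.25 (adjusted p = 0.14, where 23.8% of genes were called higher).

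For LSI6 no single step was called by limma in either tissue, and 1 of 8, S2 to S3 in LJ, had an unadjusted p under 0.05 (0.026). Its steps in LJ were −0.79 ± 0.58, 1.45 ± 0.58, 1.22 ± 0.58 and 1.25 ± 0.58 in stage order, with adjusted p between 0.088 and 0.67. In blade they were 0.27, 0.98, 0.65 and 0.79, each ± 0.58, with adjusted p between 0.33 and 0.88. Without the 4 S4 libraries the SE of LSI6 was 0.35, and the LJ rise from S2 to S3 was called (1.45, adjusted p = 0.0085). It was called without either single LJ library of S4 as well (adjusted p = 0.024 each). Where only the first LJ library of S4 was left out, the LJ rise from S3 to S4 was called (2.33, adjusted p = 0.0033), and where only the second was left out, the LJ rise from S4 to S5 was called (2.36, adjusted p = 0.0057). Which step held most of the LSI6 rise in LJ thus depended on which S4 library was used.

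**Figure D2:**
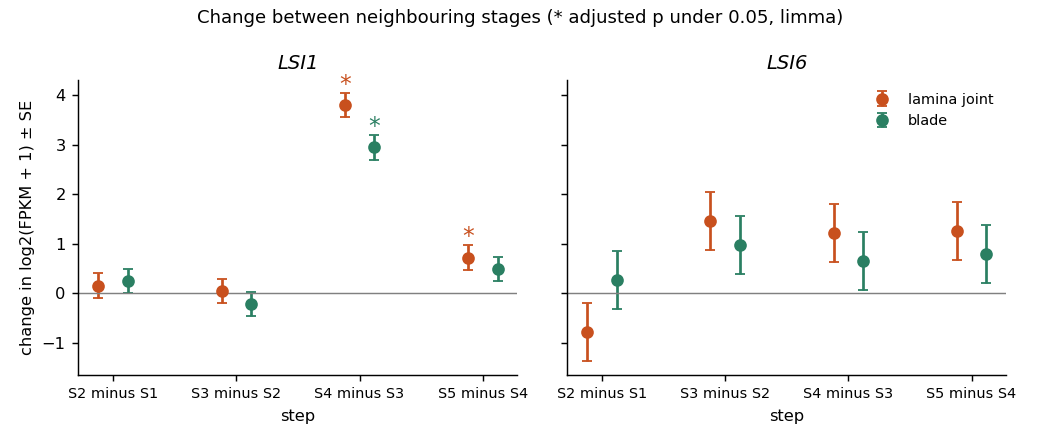
Change of LSI1 and LSI6 in log2(FPKM + 1) between neighbouring stages, with the SE of the limma fit, LJ left of blade, and asterisks where the adjusted p is under 0.05. LSI1 changes by 3.80 in LJ and 2.95 in blade from S3 to S4 and by at most 0.72 in any other step, while the LSI6 steps after S2 lie between 0.65 and 1.45.

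At S4 the libraries that differed in LSI6 differed in other genes too. LSI6 was at 10.4 FPKM in the first and 51.9 in the second LJ library, and at 14.8 and 36.7 in the blade libraries of the same numbers. The xylem and fibre cellulose synthase gene CESA4 was at 18.1 and 56.0 FPKM in the same LJ libraries and at 13.7 and 33.1 in the same blade libraries. NIP1-1, another NIP aquaporin gene, was at 11.2 and 54.6 FPKM in LJ and at 5.34 and 7.71 in blade. LSI1 was not split in this way in blade, at 9.04 and 8.31 FPKM. What these libraries share was not tested.

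The tissues were then compared at each stage, LJ minus blade. LSI1 was lower in LJ than in the blade library of the same number in 6 of 6 pairs at S1 to S3, where both tissues were under 1 FPKM, and higher in LJ in 4 of 4 pairs at S4 and S5, by 1.56 to 2.29 times. At S5 the difference was 1.06 ± 0.25 (adjusted p = 0.013), with a mean of 27.3 ± 0.914 FPKM in LJ and 12.6 ± 1.36 in blade (SD, n = 2), and 7.63% of tested genes were called higher in LJ there. This call was lost without either LJ library of S5 (adjusted p = 0.088 and 0.060) or without the second blade library of S5 (adjusted p = 0.10), and with a pseudocount of 0.1 FPKM (1.11, adjusted p = 0.37). At S4 the difference was 0.83 ± 0.25, not called (adjusted p = 0.059, where 6.7% of genes were called higher), though no library of LJ overlapped blade. When libraries of LJ and blade sharing stage and number were paired, it was called (adjusted p = 0.0047). It was called also with replicate number as an additive term in the limma fit (adjusted p = 0.044), and without either blade library of S2.

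The LSI1 differences at S1, S2 and S3 were −0.20, −0.29 and −0.02, each ± 0.25, and none was called (adjusted p between 0.46 and 0.97), where 16.5%, 22.9% and 16.9% of genes were called in either direction. At S4 and S5 part of the difference moves with the scaling of the libraries: the median over all tested genes was 0.23 at S4 and 0.15 at S5 as deposited, and 0.02 and 0.03 with upper quartile scaling, under which LSI1 stood at 0.51 (adjusted p = 0.28) and 0.88 (adjusted p = 0.034). As the mean of 5 stages LSI1 differed by 0.28 ± 0.11 (adjusted p = 0.056), against a background of 43.3% of genes called in either direction, and an exact permutation test within stages gave a two-sided p of 0.13. With pairing the limma call was made (adjusted p = 0.0085). It was made also without the first blade library of S2 (0.33, adjusted p = 0.026) or S3 (0.32, adjusted p = 0.038), the second LJ library of S3 (0.32, adjusted p = 0.039) or the first LJ library of S4 (0.31, adjusted p = 0.040). The mean of stages was lower under other settings: 0.18 with upper quartile scaling (adjusted p = 0.19), 0.03 with a pseudocount of 0.1 FPKM (adjusted p = 0.94), and 0.14 without the 4 S4 libraries (adjusted p = 0.35; exact permutation test, two-sided p = 0.43).

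For LSI6 limma called no difference between the tissues at any stage or in the mean of stages, and 0 of these 6 values had an unadjusted p under 0.05. Its difference was 0.03 ± 0.58 at S1, −1.04 at S2, −0.56 at S3, 0.01 at S4 and 0.47 at S5, and −0.22 ± 0.26 over the 5 stages (adjusted p = 0.52; exact permutation test within stages, two-sided p = 0.45). At S2 and S3 LSI6 was lower in LJ in 4 of 4 pairs, at 0.342 to 0.791 times the blade level, and at S5 it was higher in LJ in 2 of 2 pairs, at 1.12 and 1.73 times. At S2 the libraries of the tissues did not overlap, and with pairing LJ was called lower (adjusted p = 0.037, against 0.23 without pairing, where 12.4% of genes were called lower). It was called as well without the 4 S4 libraries (adjusted p = 0.042). The differences between replicates 1 and 2, from which pairing was inferred, were least alike between the tissues at S2 (r = 0.213).

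**Figure D3:**
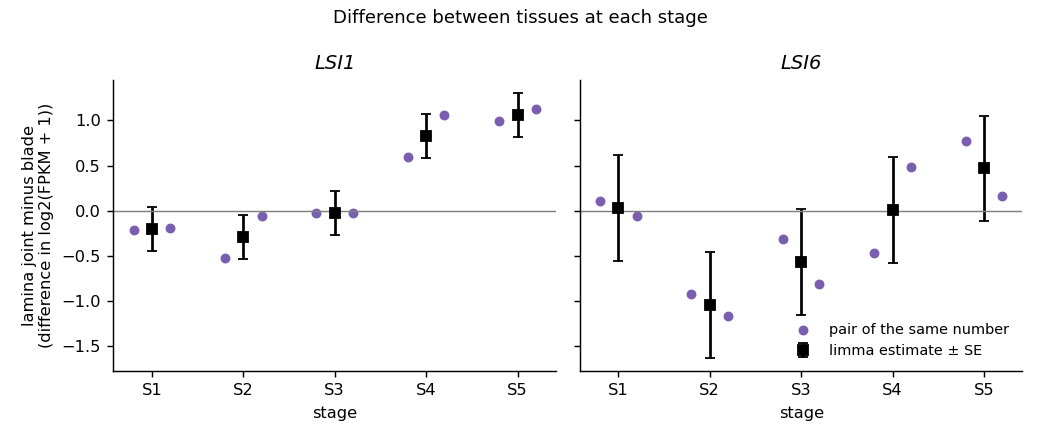
LJ minus blade in log2(FPKM + 1) for LSI1 and LSI6 at each stage, with squares for the limma estimate and its SE and points for the 2 pairs of libraries of the same stage and number. LSI1 lies at or under 0 through S3 and at 0.83 and 1.06 at S4 and S5, and the LSI6 estimates run from −1.04 at S2 to 0.47 at S5.

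Whether the tissues changed by different amounts was tested as a difference of changes, LJ change minus blade change. Between S1 and S5 LSI1 rose more in LJ, by 1.26 ± 0.35 (adjusted p = 0.025; 12.3% of tested genes were called in this direction), and for LSI6 no call was made (0.44 ± 0.83, adjusted p = 0.82). The LSI1 call was lost under upper quartile scaling (1.055, adjusted p = 0.051), quantile normalization (0.86, adjusted p = 0.080) and a pseudocount of 0.1 FPKM (2.05, adjusted p = 0.17). It was also lost without either LJ or blade library of S1, either LJ library of S5 or the second blade library of S5, with values between 1.16 and 1.31 and adjusted p between 0.059 and 0.088. For the step from S3 to S4 the LSI1 changes differed by 0.85 ± 0.35 (adjusted p = 0.21, where 4.03% of genes were called in this direction), and with pairing this was called (adjusted p = 0.034).

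The ratio of LSI6 to LSI1 within a library does not depend on how the library is scaled. Both values are per length of transcript, so their levels can be set side by side. At S1 to S3 LSI6 exceeded LSI1 in 12 of 12 libraries, by 11.6 to 209 times, with a median of 28.0. LSI1 was at 0.782 FPKM or less there, so the size of these ratios is imprecise. The blade libraries of S3, for example, gave 30.3 and 209. At S4 and S5 the ratio ran from 0.735 to 4.42, with a median of 2.56. LSI1 was above LSI6 in 1 library of the 20, the first LJ library of S4. At these stages the ratio was lower in LJ than in the blade library of the same number in 4 of 4 pairs. On the log2 scale the ratio differed by −0.77 between LJ and blade over S4 and S5 (exact permutation test within stages, two-sided p = 0.28, the smallest possible being 0.0556; swapped within pairs, p = 0.125, which is the smallest that this design can give).

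**Figure D4:**
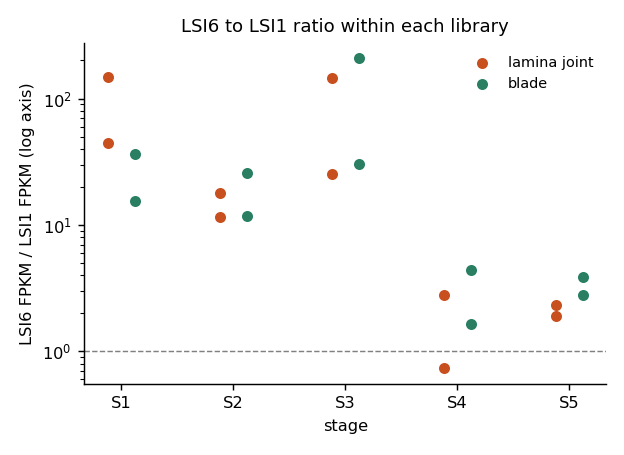
FPKM of LSI6 divided by FPKM of LSI1 within each library, on a log axis, by stage, LJ left of blade, with a dashed line where the genes are equal. Ratios lie between 11.6 and 209 at S1 to S3 and between 0.735 and 4.42 at S4 and S5.

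The IDs next to LSI1 in the numbering of the files did not show its change. OS02G0745000 lay between 10.2 and 19.1 FPKM at S1 to S3 and between 7.40 and 21.6 FPKM at S4 and S5, and OS02G0745200 reached at most 0.764 FPKM in any library.

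Likeness to other genes was measured as Pearson's r of log2(FPKM + 1) over the 10 group means, which share stages and libraries, and it is given as a description. LSI1 and LSI6 had r = 0.90, and 1902 of 26402 other tested genes were more like LSI1 than LSI6 was. The most like LSI1 was OS06G0670300 (r = 0.998), which lay at 0.720 FPKM or less at S1 to S3, between 14.2 and 32.6 FPKM in LJ at S4 and S5, and between 7.59 and 15.6 FPKM in blade at S4 and S5. Next came OS07G0569800 (r = 0.995), at 1.92 FPKM or less in all libraries. The most like LSI6 was OS03G0182400 (r = 0.990), at 10.6 FPKM or less at S1 to S3, between 16.4 and 32.2 FPKM in LJ and between 14.2 and 26.1 FPKM in blade at S4 and S5. OS06G0708700 had the same r of 0.990 with LSI6, at up to 182 FPKM in LJ and 158 in blade at S4 and S5. The tables used here pair none of these IDs with a name.

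The other NIP aquaporins were taken as a list of 8 genes, of which 7 passed the filter. Between S1 and S5 the LJ fit called 2 of 7 higher and 1 lower, and the blade fit 2 of 7 higher and 3 lower, where higher calls made up 34.7% of tested genes in LJ and 27.2% in blade, and lower calls 31.2% and 35.6%. The median over the 7 was 0.44 in LJ and −0.27 in blade. Among them, NIP1-1 went the opposite way to LSI1. At S1 to S3 it lay between 111 and 626 FPKM, the most abundant of the listed NIP genes at those stages, and it fell to 7.03 ± 1.18 FPKM in LJ at S5, against 153 ± 38.3 at S1 (−4.25 ± 0.57, adjusted p = 1.3e-05). In blade it fell to 0.261 ± 0.226 FPKM at S5, against 502 ± 156 at S1 (−8.62 ± 0.57, adjusted p = 1.8e-08). Its fall from S3 to S4, the step in which LSI1 rose, was −4.30 ± 0.57 in LJ and −5.56 ± 0.57 in blade (adjusted p = 3.3e-05 and 4.0e-06).

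NIP1-2 rose from S1 to S5 in both tissues, by 2.28 ± 0.40 in LJ and 1.35 ± 0.40 in blade (adjusted p = 1.5e-04 and 0.0085). The blade call was lost without the second blade library of S1 or the first of S5 (adjusted p up to 0.072). The unnamed list member OS05G0205000 rose in both, by 4.46 ± 0.22 in LJ and 2.75 ± 0.22 in blade, to 21.0 ± 0.405 FPKM in LJ and 11.6 ± 0.210 in blade at S5. Its pattern was closer to LSI6 (r = 0.96) and to LSI1 (r = 0.92) than that of any other list member. NIP3-1, a boron channel, had 0.44 ± 0.46 in LJ and 0.14 ± 0.46 in blade, neither called. NIP3-3 was highest at S4, at 1.84 ± 0.972 FPKM in LJ and 1.49 ± 0.673 in blade, and was at 0.0339 FPKM or less on average at S5. NIP4-1 fell in blade (−0.94 ± 0.23, adjusted p = 0.0026) and was not called in LJ (0.25 ± 0.23, adjusted p = 0.36). From S2 to S3 it changed more in LJ than in blade, by 1.77 ± 0.33 (adjusted p = 0.0078, where 2.84% of genes were called in this direction). As the mean of stages, 2 of the 7 were called lower in LJ by limma, NIP4-1 (−0.31 ± 0.10, adjusted p = 0.025) and OS06G0552700 (−0.39 ± 0.14, adjusted p = 0.033), where 15.1% of genes were called lower. With a library left out the first call was kept in 16 of 20 fits and the second in 10 of 20. The first was lost without the first blade library of S1, the second blade library of S2 or S3 or the second LJ library of S3, with values between −0.38 and −0.25 over the 20 fits. The second was lost without 1 library of each of the 10 groups, with values between −0.48 and −0.30. In the mean of stages LJ was called higher for 0 of the 7, where 43.3% of tested genes were called in either direction and 15.1% lower. Of the 7, 0 were higher at an unadjusted p under 0.05. With a library left out, 0 or 1 of the 7 were called higher.

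Stage by stage the NIP calls between the tissues fell on different sides, mostly in different genes. OS05G0205000 alone was called on both sides, lower in LJ at S1 and S3 and higher at S4 and S5. Of the lower calls, that of NIP1-2 at S2 was kept in 9 of 29 other fits, and each of the others in 24 or more of 28 or 29. LJ was called lower for 3 of the 7 at S1, 2 at S2 and 1 at S3, where 10.6%, 12.4% and 5.77% of all tested genes were called lower, and for 0 at S4 and S5. It was called higher for 0 at S1 to S3, 1 at S4 and 2 at S5, where 6.7% and 7.63% were called higher at the last 2 stages. OS05G0205000 was called higher in LJ at S4 (1.08 ± 0.22, adjusted p = 0.0082) and at S5 (0.81 ± 0.22, adjusted p = 0.034). The S4 call was lost without the second blade library of S4 (0.86, adjusted p = 0.095), with a pseudocount of 0.1 FPKM (1.25, adjusted p = 0.15), with quantile normalization (0.73, adjusted p = 0.060) and with the compared groups alone (adjusted p = 0.44). The S5 call was kept in 14 of 20 fits with a library left out, and lost without either LJ library of S1 or any 1 library of S5 (adjusted p between 0.055 and 0.17), under quantile normalization and upper quartile scaling, and with the smaller pseudocount. NIP1-1, although it fell in both tissues, was called higher in LJ at S5 (2.67 ± 0.57, adjusted p = 0.0073), at 7.03 ± 1.18 FPKM in LJ and 0.261 ± 0.226 in blade, a call lost without the second LJ or the first blade library of S5 (adjusted p = 0.060 and 0.070).

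**Figure D5:**
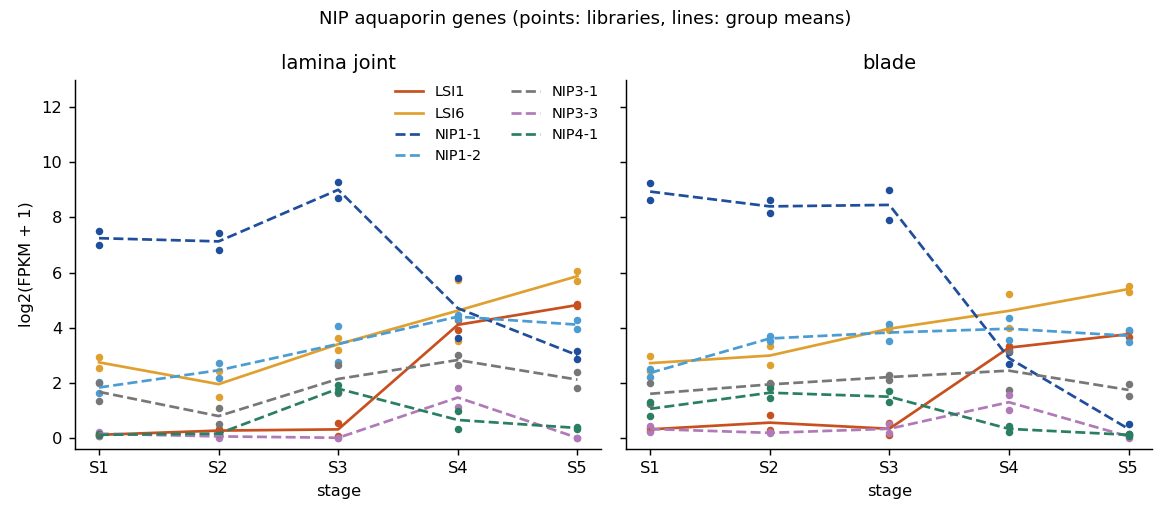
log2(FPKM + 1) of LSI1, LSI6 and the 5 other named NIP aquaporin genes by stage in LJ (left) and blade (right), with a point per library and lines through group means. NIP1-1 drops between S3 and S4 in both tissues, by 4.30 in LJ and 5.56 in blade, while LSI1 rises by 3.80 and 2.95.

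LSI6 is known from the xylem parenchyma, so the listed secondary wall genes of xylem and fibres, the cellulose synthase genes CESA4, CESA7 and CESA9 and the COBRA-like gene BC1, are given beside it. Between S1 and S5 limma called 2 of 4 lower in LJ and 4 of 4 lower in blade, with medians of −0.72 and −2.61, where 31.2% of all tested genes were called lower in LJ and 35.6% in blade. It called 0 higher in either tissue, also at an unadjusted p under 0.05. The LJ calls, of CESA4 (−1.36, adjusted p = 0.028) and CESA7 (−1.19, adjusted p = 0.035), were both lost without either LJ library of S1 or the first of S5, and that of CESA7 also without the second of S5 (adjusted p up to 0.18 and 0.17). The blade call of BC1 (−1.25, adjusted p = 0.036) was kept in 22 of 29 other fits. Those that lost it included the fits without any 1 blade library of S1 or S5 and the fit under quantile normalization. With a library left out its value ran from −1.29 to −1.22. CESA7 was at 0.281 ± 0.260 FPKM in LJ at S5, against 1.90 ± 0.150 at S1, after a maximum of 62.7 ± 38.2 at S3. In blade CESA7 was at 0.0901 ± 0.0492 FPKM at S5, against 17.2 ± 2.098 at S1, after 105 ± 18.0 at S3. At S5 the summed level of the 4 genes was between 0.549 and 2.08 FPKM in LJ and between 0.223 and 0.596 FPKM in blade, the stage with the highest means of LSI1 and LSI6.

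Since LSI1 is best known from the root, root marker IDs were read as well. Of 4 listed, 3 passed the filter, and the summed level of all 4 was between 0.855 and 1.95 FPKM in LJ at S5, against 7.96 to 12.45 FPKM at S1, and between 0.949 and 1.87 FPKM in blade at S5, against 30.2 to 42.5 FPKM at S1. Most of the sum at S1 was NRAMP5, with means of 8.52 FPKM in LJ and 34.5 in blade. In LJ the sum was higher at S3, between 23.6 and 47.7 FPKM, and lay between 1.46 and 2.04 FPKM at S4. In blade it lay between 8.21 and 12.07 FPKM at S3 and between 0.637 and 2.46 FPKM at S4. Between S1 and S5 1 was called lower in LJ, and 1 higher and 1 lower in blade. Of all tested genes 31.2% were called lower in LJ, and 27.2% higher and 35.6% lower in blade. CASP1, a protein of the Casparian strip of the endodermis, reached at most 0.229 FPKM at S4 and S5. NRAMP5, a manganese and cadmium transporter, was lower at S5 than at S1, with a log2 difference of −2.60 ± 0.41 in LJ and −4.89 ± 0.41 in blade (adjusted p = 7.0e-05 and 1.9e-07), and stood at 0.761 FPKM or less at S4 and S5. The iron transporter gene IRT1 stayed at or under 1.58 FPKM in every library and was called higher at S5 in blade (0.77 ± 0.26, adjusted p = 0.017). The 4 listed small-subunit Rubisco IDs, markers of green cells, were higher at S5 than at S1, as LSI1 and LSI6 were, but not in the last step. Between S1 and S5 limma called 4 of 4 higher in LJ and 4 of 4 in blade, with medians of 5.90 and 3.87. Of all tested genes 34.7% and 27.2% were called higher. From S3 to S4 it called 4 of 4 higher in LJ and 3 of 4 in blade, with medians of 3.57 and 2.06. In that step 16.2% and 8.08% of tested genes were called higher. From S4 to S5 limma called 0 of 4 higher in either tissue, where 19.5% of tested genes in LJ and 23.8% in blade were called higher. The Rubisco medians in that step were −1.595 in LJ and −0.76 in blade, against 0.25 and 0.28 over all tested genes. The change was not called in either direction for 3 of 4 IDs in LJ and 4 of 4 in blade. Their r over the 10 group means lay between 0.64 and 0.79 with LSI1 and between 0.73 and 0.87 with LSI6. Of 26402 other tested genes, between 4504 and 6990 were more like LSI1 than a given Rubisco ID was. For LSI6 the number was between 3476 and 6567. The part of other cell types in the LSI1 and LSI6 values was not tested. The listed meristem genes were OSH1, OSH15, OSH71 and OSH6. In LJ they summed to between 3.59 and 5.81 FPKM at S5, against 8.18 to 30.4 FPKM at S1. In blade they summed to between 0.312 and 0.528 FPKM at S5, against 0.473 to 0.780 FPKM at S1. The LJ sum was at 1.14 FPKM or less at S2 to S4. OSH1 was at 0 in both tissues at S5. OSH71 made up most of the sum at S5. Its mean was 4.22 FPKM in LJ and 0.420 in blade, against 3.72 and 0.0558 at S1. Between S1 and S5 limma called 2 of 3 tested meristem genes lower in LJ and 0 of 3 in blade. It called 0 higher in either tissue. Lower calls made up 31.2% and 35.6% of all tested genes, and higher calls 34.7% and 27.2%. Of 3 IDs listed for arsenic and boron handling, whose symbols the annotation lacks, 1 rose, 1 fell and 1 was not called in each tissue from S1 to S5. Among all tested genes 34.7% rose and 31.2% fell in LJ, and 27.2% rose and 35.6% fell in blade.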

How the data were processed

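Sample titles gave tissue, stage and replicate of the 20 RNA-seq libraries. Per the labels' protocols, total RNA went through TRIzol extraction and an NEBNext Ultra library kit, and the use of strand in counting was not given in the sources here. The values that the authors deposited are FPKM, and tools named in the submitters' processing notes are CASAVA 1.8, Trimmomatic 0.36, TopHat2 2.1.1 and Cufflinks 2.2.1, with the build IRGSP-1.0. Read numbers cannot be had from FPKM, so depth is unknown and counting intervals are left out. Of 82632 features per library, the 44803 without a rice gene ID were not used.

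log2(FPKM + 1) of the 26403 genes at 1 FPKM or more in 2 or more libraries was fitted with limma 3.58.1 (R 4.3.3), all 10 groups together, with a trend of variance on level, 10 residual and 4.09 prior degrees of freedom and 21 comparisons. Adjusted p is Benjamini-Hochberg over all genes tested in a comparison, with a threshold of 0.05. Levels carry the SD over 2 libraries and differences the SE of the fit.

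The members and lists were chosen with earlier results of these data known. The text names the members, list genes that were called or extreme, and the IDs most like a member. For 33 symbols an ID came from background knowledge, and 21 of these pairs are named because RefSeq (ASM3414082v1) places the symbol on the same chromosome within 2% of the ID's rank in gene order. The other 12 are given by ID or in sums.

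Pairing by number was checked through the gene-wise difference of replicates 1 and 2. For LJ against blade this gave r of 0.213 to 0.774 when both came from one stage, more than 0.1 in all 5. When stages differed it gave −0.442 to 0.197, so a value over 0.1 does not by itself mark a pair. The lowest value within a stage, 0.213 at S2, lay close to that upper end. That numbers pair the tissues of a stage was taken as an assumption, with the least backing at S2. In 1 alternative these pairs were used as blocks (duplicateCorrelation, 0.495). Also tried were an additive replicate number, a pseudocount of 0.1 FPKM, filters of 0 and 5 FPKM, quantile and upper quartile scaling, fits of the compared groups alone and fits without each library in turn. Leaving out the 4 S4 libraries was chosen after seeing the data.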

Additional observations from a re-analysis of the deposited data

Results flagged for a closer look

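The change from S1 to S5 differed between LJ and blade in LSI1, by 1.26 ± 0.35 (limma interaction term, adjusted p = 0.025, LJ change minus blade change on the log2 scale). Among the other NIP aquaporins the same test was passed by NIP1-1 at 4.37 ± 0.80 (adjusted p = 0.0019), since it fell less in LJ, by OS05G0205000 at 1.71 ± 0.31 (adjusted p = 0.0019) and by NIP4-1 at 1.19 ± 0.33 (adjusted p = 0.024). Of all tested genes 12.3% were called in this direction. The NIP4-1 call was kept in 13 of 20 fits with a library left out, and lost without the first blade library of S1 and without either LJ library of S1, either LJ library of S5 or either blade library of S5, with values from 0.94 to 1.44 over the 20. For single steps, the change of NIP4-1 from S2 to S3 differed by 1.77 ± 0.33 (adjusted p = 0.0078), with 2.45 ± 0.436 FPKM in LJ and 1.84 ± 0.556 in blade at S3 (SD, n = 2). The change of OS05G0205000 from S3 to S4 differed by 2.29 ± 0.31 (adjusted p = 0.0013), with 9.24 ± 0.0791 FPKM in LJ and 3.90 ± 1.06 in blade at S4. In this direction 2.84% of tested genes were called from S2 to S3 and 4.03% from S3 to S4. Groups of 2 libraries are too small to mark a single library as far from the others.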

How the results depend on the processing

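Of 1248 alternative values for the 44 results on LSI1 and LSI6, 1172 kept direction and side of the threshold, 28 lost a call, 19 gained one and 29 changed sign, 0 of these last from a called result. The extra rise of LSI1 in LJ from S1 to S5 was not called with a pseudocount of 0.1 (2.05), quantile normalization (0.86) or upper quartile scaling (1.055), and ran from 1.16 to 1.36 with a library left out. The number of genes called in that comparison, 3848, was 6320 with the compared groups alone and 7371 with the replicate block of LJ and blade pairs, and 2525 to 4218 with a library left out. LSI1 over all stages, 0.28, was called with the pairs as a replicate block and with the additive replicate block, and ran from 0.22 to 0.33 with a library left out. It was 0.18 with upper quartile scaling, 0.03 with a pseudocount of 0.1 and 0.14 without the S4 libraries, none of them called. Neither block changed any other call of these genes than those given above.

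Signs that changed belonged to uncalled values. LSI1 in LJ from S2 to S3 gave −0.0207, −0.18 and −0.00079 with a pseudocount of 0.1, quantile normalization and upper quartile scaling. LSI1 gave 0.13 with a pseudocount of 0.1 for the tissue difference in change from S1 to S2, and 0.0319 with quantile normalization for LJ minus blade at S1. LSI6, LJ minus blade at S4, gave −0.0039, −0.26 and −0.33 with that pseudocount, quantile normalization and upper quartile scaling. With a library left out, LSI1 ran from −0.18 to 0.27 in LJ from S2 to S3, −0.0405 to 0.53 and −0.51 to 0.0609 in blade from S1 to S2 and S2 to S3, −0.25 to 0.20 for LJ minus blade at S3, and −0.37 to 0.19 and −0.0171 to 0.55 for the tissue difference in change in the first 2 steps. LSI6 ran from −0.0800 to 0.63 in blade from S1 to S2, −0.24 to 0.30 and −1.10 to 1.12 for LJ minus blade at S1 and S4, and −0.44 to 0.0027 over all stages, the upper end without the first LJ library of S4. Its tissue difference in change ran from −0.00017 to 0.95, −0.54 to 1.68 and −0.65 to 1.57 in the last 3 steps. The causes were not tested.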
